A study of Mus musculus with 12 samples.

Results

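The genes that make blood clot, hold clotting in check and dissolve the clot were followed in the livers of mice fed an oil concentrate of VLCPUFA, the very-long-chain polyunsaturated fatty acids found in fish oil. The group holds 35 genes of the 49398 in the deposited gene table: 10 clotting factors, 3 fibrinogen chains, 3 contact system genes, 8 anticoagulants, 6 genes of fibrinolysis and its regulation, 1 adhesion gene, 2 vitamin K cycle genes and 2 subunits of a secretory cargo receptor. They were chosen by gene symbol, matched to the Ensembl IDs of the table, and all 35 had enough reads to be among the 13814 genes tested.

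Wild-type C57BL/6J mice of both sexes, aged 9 months, ate AIN-93G chow that held no VLCPUFA oil (control), 1% oil or 5% oil by weight for 8 weeks. All mice were fasted for 5 hours before liver was taken, and mRNA was sequenced from 12 livers, 4 per diet, with 2 females and 2 males in each. The labels give every library its own animal number, and the hour of collection is not given in the sources used here. The series text speaks of 6 samples per diet, of which the 4 labelled for each diet were analysed here.

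Clotting is a chain of serine proteases made mostly by hepatocytes and secreted as inactive precursors. Tissue factor and factor VII start the chain, factor X and its cofactor factor V turn prothrombin into thrombin, and thrombin turns fibrinogen into fibrin. Antithrombin, the protein C pathway and tissue factor pathway inhibitor restrain it, and plasmin, made from plasminogen, dissolves the fibrin.

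Libraries held 5291385 to 15674130 reads counted on genes. The 35 genes took 2.33 to 3.36% of these reads on the control diet (median 2.71%), 2.35 to 2.90% on 1% oil (median 2.55%) and 2.20 to 2.45% on 5% oil (median 2.36%). The 3 fibrinogen chains alone took 0.87 to 1.56%, 0.84 to 1.17% and 0.82 to 0.97%. Control female N980 had the largest share of both. The liver label was checked against 18 hepatocyte markers, whose summed level was 119900 to 231300 CPM (reads scaled to library size with TMM factors, the scale of all levels given here), and none of them was at 0. Reads on 19 transcript models with a retained intron made up 0.14 to 2.34% of the reads of the 35 genes, and 4 female libraries stood apart at 1.47% or more: control N979, 1% oil N983 and N984, and 5% oil N988. Results are therefore also given without those 4 libraries, which leaves no female on 1% oil. The retained-intron share serves here as a label for these libraries, which also stood apart on some models of other types.

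The promoters of 6 genes are shown because the results turn on those genes. These are Habp2, which passed the test at 5% oil, the 3 fibrinogen genes, whose neighbouring promoters carry different motifs, and F7 and F10, which differed between the sexes. Each is the 250 bases before the start of the gene in RefSeq on build GRCm38.p6, read in the direction of the gene. Capitals mark matches, on either strand, to the IL-6 response core (CTGGGAA), the HNF1 core (GTTAAT) and the C/EBP motif (TTGCNNAA). The F7 and F10 windows hold no match and are in lower case throughout.
Habp2, chr19:56287662-56287911, plus strand: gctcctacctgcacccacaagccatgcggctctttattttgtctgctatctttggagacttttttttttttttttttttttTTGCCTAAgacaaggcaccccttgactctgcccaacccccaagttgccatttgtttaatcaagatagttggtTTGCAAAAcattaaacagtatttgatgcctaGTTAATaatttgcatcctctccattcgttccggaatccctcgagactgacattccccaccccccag
Fga, chr3:83025903-83026152, plus strand: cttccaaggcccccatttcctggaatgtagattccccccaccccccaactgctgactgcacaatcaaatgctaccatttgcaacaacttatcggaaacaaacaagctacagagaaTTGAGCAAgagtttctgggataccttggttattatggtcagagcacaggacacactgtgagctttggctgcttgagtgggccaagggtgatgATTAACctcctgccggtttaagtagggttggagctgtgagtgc
Fgb, chr3:83049864-83050113, minus strand: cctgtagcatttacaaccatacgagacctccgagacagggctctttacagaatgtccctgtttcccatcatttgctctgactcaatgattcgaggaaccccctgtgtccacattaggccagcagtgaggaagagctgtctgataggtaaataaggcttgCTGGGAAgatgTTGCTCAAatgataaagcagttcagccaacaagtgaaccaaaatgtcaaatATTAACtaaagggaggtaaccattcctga
Fgg, chr3:83007474-83007723, plus strand: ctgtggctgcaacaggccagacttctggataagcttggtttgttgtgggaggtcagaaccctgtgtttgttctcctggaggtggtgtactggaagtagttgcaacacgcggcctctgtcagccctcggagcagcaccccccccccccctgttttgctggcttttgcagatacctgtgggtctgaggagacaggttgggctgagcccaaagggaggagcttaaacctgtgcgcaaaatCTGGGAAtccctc
F7, chr8:13025784-13026033, plus strand: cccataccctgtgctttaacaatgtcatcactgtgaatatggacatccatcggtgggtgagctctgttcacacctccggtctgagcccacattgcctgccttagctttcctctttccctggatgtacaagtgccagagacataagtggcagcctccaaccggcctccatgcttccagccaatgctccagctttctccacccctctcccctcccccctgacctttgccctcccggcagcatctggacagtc
F10, chr8:13037058-13037307, plus strand: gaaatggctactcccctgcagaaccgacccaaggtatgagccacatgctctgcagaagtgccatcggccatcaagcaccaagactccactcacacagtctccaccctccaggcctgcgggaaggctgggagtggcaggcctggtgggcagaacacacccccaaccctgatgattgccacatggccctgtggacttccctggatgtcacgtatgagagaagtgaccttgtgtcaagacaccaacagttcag

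Windows were searched for 29 of the 35 genes. The IL-6 response core was in 4 of the 29 (F9, Fgb, Fgg and Tfpi) and in 9.1% of 32536 windows of the same length. The HNF1 core was in 6 of the 29 (F13b, Fga, Fgb, Habp2, Proz and Vtn) against 2104 of 32536 windows (6.5%). The C/EBP motif was in 9 of the 29 against 3114 of 32536 (9.6%). The HNF4 core CAAAGT was in 9 of the 29 against 4107 of 32536 (12.6%). The E-box CACGTG was in 1 of the 29, that of Mcfd2, against 1964 of 32536 (6.0%). Only the E-box had a lower share in the 29 than in all windows, and these differences were not tested. In Fgb the IL-6 core lies at bases -91 to -85 and the HNF1 core at -29 to -24 before the start, while the Fga window holds a C/EBP match and an HNF1 core and no IL-6 core. The HNF1 match and the C/EBP match overlap in none of the 6 windows shown. A match is a description of letters and was not tested as a binding site.

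The liver levels of the 35 genes spanned several orders of magnitude. Per kilobase of coding sequence and over all 12 libraries, Fgb was highest at 2606 CPM per kb, followed by Fgg (2354), Serpinc1 (1535), Fga (1387), Vtn (1309) and Kng1 (1231). Of the 35, 23 were over 100 CPM per kb. Reads were counted on whole transcripts, so this order and this count also depend on the untranslated length. The Fgb transcript has 3810 bases against 1443 coding bases, and the leading Fgg transcript has 1695 against 1329. The order per whole transcript length was not computed. The library ranges of neighbours in this order overlap, for example 1959 to 4288 for Fgb and 1634 to 4062 for Fgg. The 5 genes under 10 CPM per kb were Tfpi (5.19), F3 (3.19), Thbd (1.59), F8 (1.14) and Vwf (0.502), which are known mainly from cells other than hepatocytes, endothelial cells among them. Within a gene, the highest library exceeded the lowest by 1.52-fold (Serpina10) to 11.2-fold (Thbd), with a median of 2.18-fold, and 29 of 35 genes spanned less than 3-fold.

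**Figure D1:**
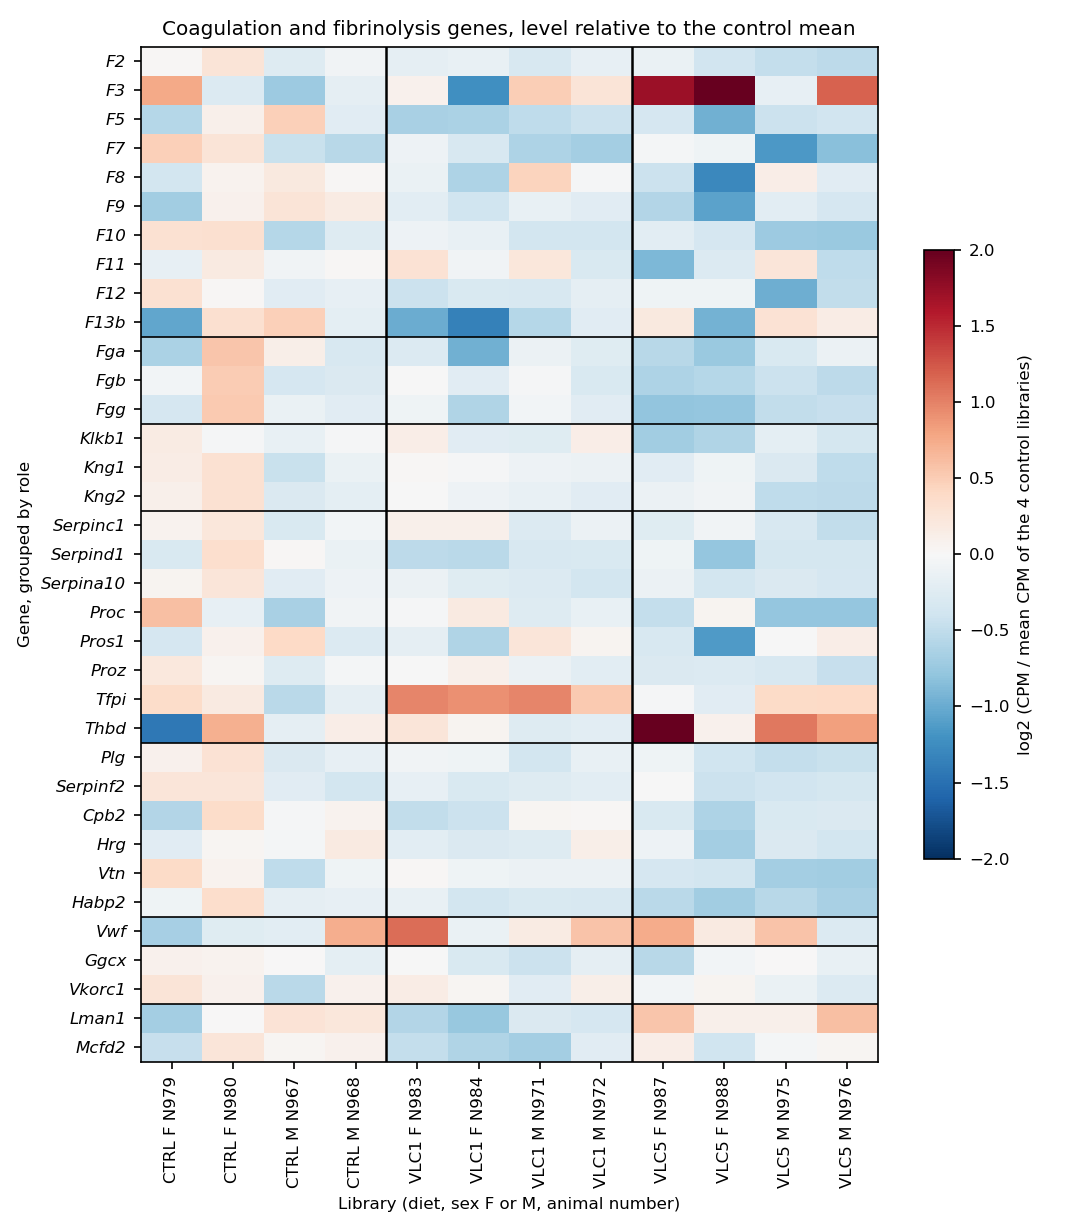
Level of each of the 35 genes (rows, grouped by role) in each of the 12 libraries (columns, by diet, sex and animal), as log2 of its CPM over the mean of the 4 control libraries; the colour scale ends at 2 in either direction. The 5% oil columns are mostly blue, with F3, Thbd, Vwf and Lman1 among the exceptions, the Tfpi row is red in all 4 libraries on 1% oil, and control female N980 is red in most rows.

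On 5% oil most clotting genes were read at a slightly lower level than on the control diet, and 1 of the 35 passed the test. Habp2 fell, against 2.46% of all tested genes that passed in either direction (340 of 13814). The log2 fold change was below 0 for 30 of the 35 genes, with a median of -0.34, against 6697 of 13814 genes and a median of 0.01 over all genes. At an unadjusted p below 0.05, 14 of the 35 were lower and 2 were higher, where 7.41% of all genes were lower. In 5 of the 35 (Fgb, Fgg, Klkb1, Proz and Habp2) all 4 libraries on 5% oil lay below all 4 control libraries, which 2.98% of all genes did. In 14 of the 35 the libraries did so within each sex, which 6.02% of all genes did. These 14 were F2, F7, F10, F12, Fgb, Fgg, Klkb1, Kng2, Serpinc1, Serpina10, Proz, Plg, Vtn and Habp2.

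These counts moved with single libraries, with the filter and with the scaling. Without control female N980 the median of the 35 was -0.22, with 28 genes lower, and at an unadjusted p below 0.05 there were 7 lower and 3 higher. The 14 lower at an unadjusted p became 9 without control male N968, 9 without 5% oil female N988, 9 without 5% oil male N976 and 8 without the filter on low counts. With library totals alone in place of TMM factors, the median of all genes moved from 0.01 to 0.17 and the median of the 35 was -0.18. On that scaling 27 of the 35 were below 0, and at an unadjusted p below 0.05 only 4 were lower and 3 were higher, as in limma on the deposited CPM. Without the 4 libraries rich in retained introns the median was -0.33 with 30 lower.

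The fibrinogen chains, which form the clot itself and are acute phase proteins of the hepatocyte, were among the 4 highest of the 35 per kilobase of coding sequence. Among controls, Fgb was at 4176 and 6188 CPM in females and at 3427 and 3535 in males. It was at 4316 and 3719 in females and 4253 and 3502 in males on 1% oil, and at 2827 and 2926 in females and 3232 and 3021 in males on 5% oil. Its highest library on 5% oil was below the lowest of both other diets. Fgg was at 2984, 5399, 3414 and 3189 CPM on the control diet (2 females, then 2 males), at 3539, 2475, 3613 and 3203 on 1% oil and at 2172, 2189, 2654 and 2718 on 5% oil. All 4 control libraries exceeded all 4 on 5% oil, with the 2 females lowest. Fga was at 2497, 5726, 4222 and 3105 CPM on the control diet, at 3215, 2005, 3602 and 3274 on 1% oil and at 2656, 2334, 3158 and 3596 on 5% oil, and these groups overlap.

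The fold changes at 5% oil did not pass the test for any chain. For Fgb it was -0.51 ± 0.18 on the log2 scale (SE, adjusted p = 0.195), for Fgg -0.63 ± 0.21 (adjusted p = 0.148) and for Fga -0.43 ± 0.25 (adjusted p = 0.483), all by edgeR. The differences were larger in females than in males in value, -0.85 against -0.16 for Fgb, -0.94 against -0.30 for Fgg and -0.72 against -0.12 for Fga. The interaction of sex and diet did not pass for these genes or for any other of the 13814. Without control female N980 the values were -0.30 for Fgb, -0.35 for Fgg and -0.06 for Fga. In RefSeq the 3 genes are neighbours in the order Fgg, Fga and Fgb, with 0 protein-coding genes between them.

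**Figure D2:**
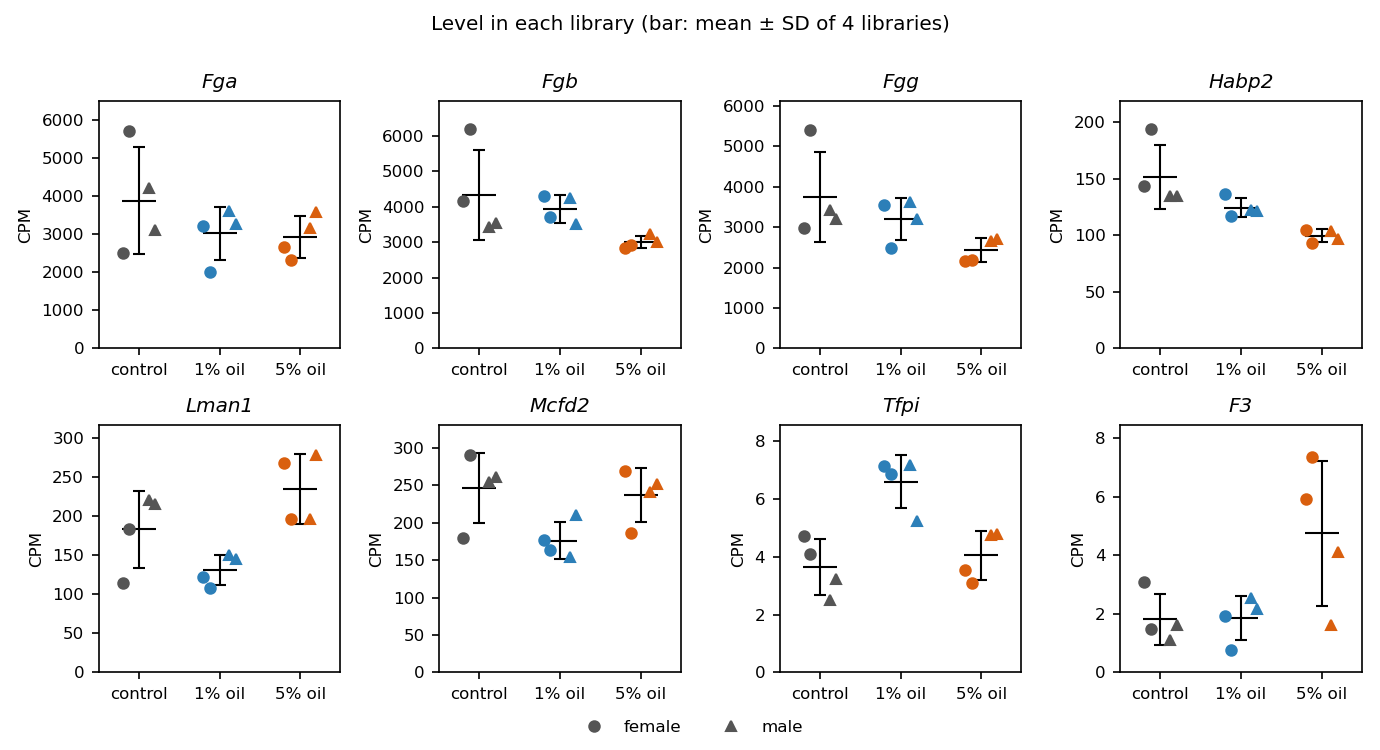
CPM (vertical axes, from 0) of 8 genes in each library by diet, with females as circles and males as triangles and the mean ± SD of 4 libraries in black. Fgb, Fgg and Habp2 on 5% oil lie below every control library, Lman1 on 5% oil lies above every library on 1% oil, and Tfpi on 1% oil lies above every control library.

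Habp2 (ENSMUSG00000025075), a serine protease that can activate factor VII and plasminogen activators, was the gene that fell on 5% oil. Among controls its level was 143 and 194 CPM in females and 135 and 135 in males. It was at 137 and 117 in females and 123 and 122 in males on 1% oil, and 105 and 93.5 in females and 104 and 96.8 in males on 5% oil. The 5% oil libraries lay below all others, and those on 1% oil overlapped the control range. The means were 152 ± 28.5, 124 ± 8.58 and 99.8 ± 5.52 CPM (SD, n = 4 each). The log2 fold change at 5% oil was -0.60 ± 0.15 (SE, edgeR adjusted p = 0.0474), and at 1% oil it was -0.28 ± 0.15 (adjusted p = 0.494). The call was near the threshold: without N980, which stood at 194 CPM, the value was -0.46 (adjusted p = 0.177), and 11 of the 12 fits that left out a library lost it. Without the 4 libraries rich in retained introns it was -0.59 (adjusted p = 0.101), and with library totals alone -0.44 (adjusted p = 0.0849).

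Of the 10 clotting factors of the cascade, 0 passed at 5% oil by edgeR and 6 were lower and 1 higher at an unadjusted p below 0.05. F2 encodes prothrombin and was at 1681 ± 251 CPM on the control diet and 1300 ± 164 on 5% oil (SD, n = 4; log2 fold change -0.37 ± 0.14, adjusted p = 0.226). F5, the cofactor of factor X, was at 417 ± 129.6 and 293 ± 53.5 CPM (-0.50 ± 0.20, adjusted p = 0.251), and its control libraries alone ran from 281 to 583. F9, the protease of the tenase complex, was at 189 ± 48.9 and 132 ± 32.5 CPM (-0.52 ± 0.18, adjusted p = 0.181). For all 3 genes the libraries of the 2 diets overlap when the sexes are pooled. F8, the cofactor of factor IX, had a log2 fold change of -0.41 ± 0.24 (adjusted p = 0.470), F11, factor XI, of -0.31 ± 0.22 (adjusted p = 0.583) and F12, factor XII, of -0.38 ± 0.18 (adjusted p = 0.342). DESeq2 on the same design called 5 of the 35 lower at 5% oil: F2, F10, Proz, Vtn and Habp2. Over all genes DESeq2 also called more than edgeR did, as given in the closing section.

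F3, tissue factor, ran the other way at a very low level, between 5 and 100 reads a library. It was at 3.08, 1.5, 1.097 and 1.61 CPM on the control diet (2 females, then 2 males), at 1.92, 0.781, 2.56 and 2.17 on 1% oil and at 5.94, 7.36, 1.62 and 4.12 on 5% oil. The 2 females and male N976 on 5% oil were above every other library, and male N975 was within the control range. The log2 fold change was 1.39 ± 0.45 (SE, adjusted p = 0.136), and 1.67 without N975 (adjusted p = 0.0384). F13b, the carrier subunit of factor XIII, was at 106 ± 43.2 CPM on the control diet, 64.0 ± 21.2 on 1% oil and 106 ± 34.4 on 5% oil (SD, n = 4), and these groups overlap.

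**Figure D3:**
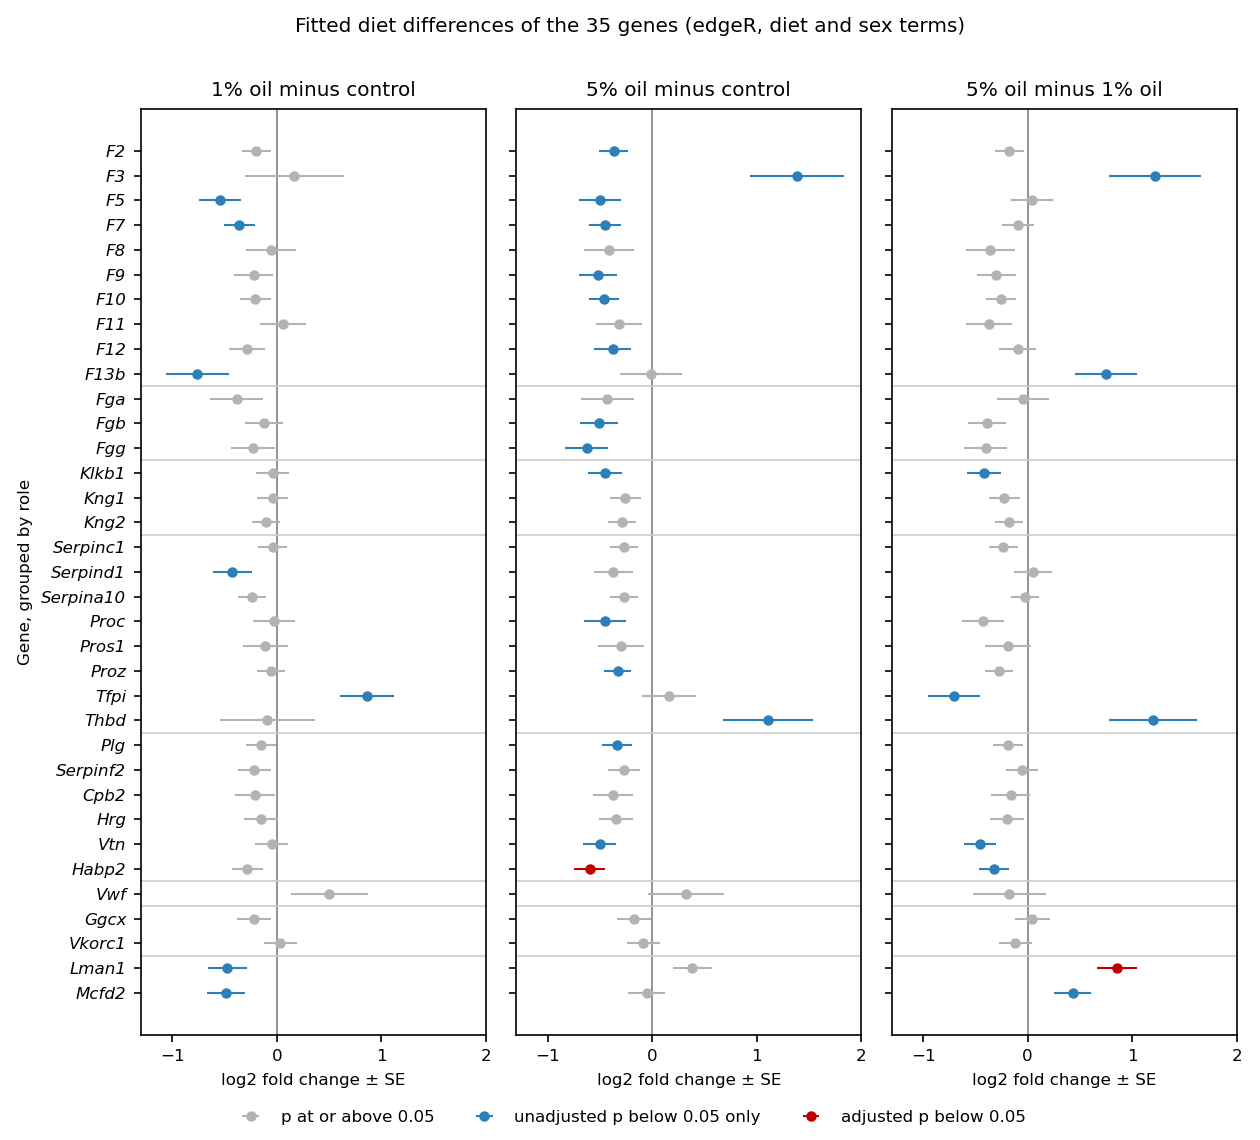
Fitted log2 fold change with its SE (horizontal axes) for each of the 35 genes (rows, grouped by role) at 1% oil against control, 5% oil against control and 5% against 1% oil. Habp2 at 5% oil and Lman1 at 5% against 1% oil are the 2 points in red, whose adjusted p is below 0.05.

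The contact system genes encode plasma prekallikrein (Klkb1) and the kininogens (Kng1, Kng2), from which bradykinin is cut. Klkb1 was at 319, 280.4, 256 and 279 CPM on the control diet, at 312, 243, 241 and 309.9 on 1% oil and at 175, 186, 248 and 222 on 5% oil (2 females, then 2 males). The libraries on 5% oil lay below all control libraries, and the 2 females were lowest. The log2 fold change was -0.46 ± 0.16 (adjusted p = 0.186). Kng1 had a log2 fold change of -0.26 ± 0.15 and Kng2 of -0.29 ± 0.13 (adjusted p = 0.470 and 0.347). These kininogen copies are near-identical and their estimated counts are not whole numbers in any of the 12 libraries, so how reads were shared between them is uncertain. This limit is not theirs alone. Counts were also not whole numbers in all 12 libraries for Klkb1, F2, Serpinc1 and Serpina10, in 11 for F10, and in fewer for some other members.

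Among the anticoagulants 0 of 8 passed at 5% oil by edgeR, with 2 lower and 1 higher at an unadjusted p below 0.05. Serpinc1, antithrombin, was at 2294 ± 354 CPM on the control diet and 1898 ± 227 on 5% oil (log2 fold change -0.27 ± 0.14, adjusted p = 0.402). Serpind1, heparin cofactor II, had a log2 fold change of -0.37 ± 0.18 (adjusted p = 0.380), and Serpina10, the inhibitor that works with protein Z, of -0.27 ± 0.13 (adjusted p = 0.385). Proc, protein C, had a log2 fold change of -0.45 ± 0.20 (adjusted p = 0.313), and its cofactor Pros1, protein S, of -0.30 ± 0.22 (adjusted p = 0.597). Proz, protein Z, was at 419, 370.3, 301 and 352 CPM on the control diet, at 357, 386, 333 and 313 on 1% oil and at 294, 299, 288 and 263 on 5% oil. All 4 libraries on 5% oil were below every other library. The fold change was -0.33 ± 0.13 (adjusted p = 0.252).

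Tfpi, the inhibitor of the tissue factor and factor VII complex, had its highest values on 1% oil. It was at 4.71, 4.10, 2.51 and 3.22 CPM on the control diet (2 females, then 2 males), at 7.16, 6.87, 7.17 and 5.23 on 1% oil and at 3.56, 3.09, 4.75 and 4.80 on 5% oil. The 4 libraries on 1% oil were above the 8 others. The log2 fold change was 0.87 ± 0.26 at 1% oil (adjusted p = 0.207), 0.16 ± 0.26 at 5% oil (adjusted p = 0.855) and -0.71 ± 0.25 for 5% against 1% oil (adjusted p = 0.163). At 5% oil the fitted value was -0.40 in females and 0.72 in males, and the difference between the sexes was -1.12 ± 0.45 (unadjusted p = 0.0285, adjusted p = 0.930). Thbd, thrombomodulin, which turns thrombin into an activator of protein C, was at 0.725, 3.2, 1.72 and 2.15 CPM on the control diet, at 2.31, 2.03, 1.62 and 1.68 on 1% oil and at 8.12, 2.06, 4.05 and 3.44 on 5% oil. Its log2 fold change at 5% oil was 1.11 ± 0.43 (adjusted p = 0.237), on 4 to 130 reads a library.

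Tfpi, Thbd, F8 and Vwf are made by endothelial cells in large part, and so the markers of sinusoidal endothelium are given with them. The 17 markers summed to 335 to 559 CPM on the control diet, 408 to 579 on 1% oil and 301 to 418 on 5% oil, with 0 of 17 called and a median log2 fold change of -0.37 at 5% and 0.11 at 1% oil. For 5% against 1% oil 15 of the 17 were below 0, with a median of -0.46 and 0 called by edgeR. At an unadjusted p below 0.05, 6 of the 17 were lower, against 1073 of all 13814 genes. None of the 17 was at 0. Vwf, the platelet adhesion protein, had a log2 fold change of 0.33 ± 0.36 at 5% oil and 0.50 ± 0.37 at 1% oil (adjusted p = 0.774 and 0.638). Platelet markers summed to 11.71 to 26.0 CPM on the control diet, 10.95 to 25.9 on 1% oil and 11.69 to 17.7 on 5% oil. In bulk liver, fewer cells of a type and less RNA per cell cannot be told apart, and the part of these cells in the values was not tested.

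In fibrinolysis, 1 of 6 genes passed at 5% oil, Habp2 as described. Plg, plasminogen, was at 2269 ± 404 CPM on the control diet and 1787 ± 236 on 5% oil (log2 fold change -0.34 ± 0.14, adjusted p = 0.291). Serpinf2, the plasmin inhibitor, had a log2 fold change of -0.27 ± 0.16 (adjusted p = 0.475), and Hrg, a plasma protein that binds plasminogen and heparin, of -0.34 ± 0.16 (adjusted p = 0.350). Vtn, vitronectin, which stabilises the plasminogen activator inhibitor, was at 2768, 2218, 1493 and 2006 CPM on the control diet, at 2166, 1999, 1960 and 1957 on 1% oil and at 1689, 1641, 1318 and 1306 on 5% oil. The libraries on 5% oil lay below all 4 on 1% oil, and control male N967 overlapped them. The fold change against control was -0.50 ± 0.16 (adjusted p = 0.118).

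Cpb2, the carboxypeptidase that slows fibrinolysis, had a transcript makeup that set 4 libraries on 3 diets apart. The retained-intron model Cpb2-202 took 42.1% of its reads in control female N979, 36.4% and 32.6% in the 1% oil females N983 and N984, 18.4% in the 5% oil female N988 and 3.3% or less in the other 8 libraries. The retained-intron model Vtn-204 was highest in the same 4 libraries, at 13.3 to 19.8% of Vtn reads, and was at 0.1 to 11.1% in the others. Reads on nuclear-retained noncoding RNAs made up 0.0939% of the library in N979, 0.0658% in N983, 0.0563% in N984 and 0.1438% in N988, against 0.0251 to 0.0732% in the other 8. The gene level of Cpb2 had a log2 fold change of -0.38 ± 0.19 at 5% oil (adjusted p = 0.399) and of -0.44 without those 4 libraries.

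**Figure D4:**
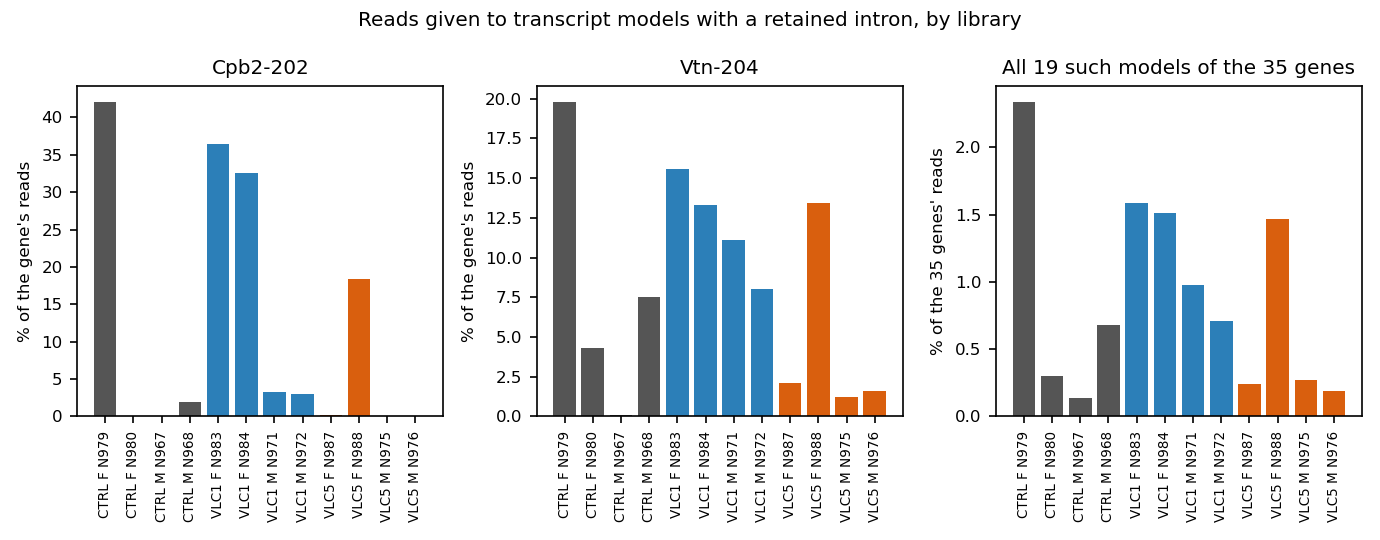
Share of reads (vertical axes, %) given to the retained-intron models Cpb2-202 and Vtn-204, and to all 19 such models of the 35 genes, in each library, coloured by diet. Control female N979, 1% oil females N983 and N984 and 5% oil female N988 have the 4 tallest bars in each panel. The last panel includes the reads of Cpb2-202 and Vtn-204.

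The vitamin K cycle, which gamma-carboxylates factors II, VII, IX and X and proteins C, S and Z, showed small values. Ggcx, the carboxylase, had a log2 fold change of -0.17 ± 0.17 at 5% oil (adjusted p = 0.716) and Vkorc1, the epoxide reductase, of -0.09 ± 0.16 (adjusted p = 0.877). Their levels ran from 17.5 to 27.6 CPM and from 105 to 180.4 CPM over all 12 libraries.

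On 1% oil 0 of the 35 genes passed the test by edgeR, against 0.224% of all genes (31 of 13814). DESeq2 and limma also called 0 of the 35. At an unadjusted p below 0.05, 6 were lower (F5, F7, F13b, Serpind1, Lman1 and Mcfd2) and Tfpi was higher, where 6.55% of all genes were lower. The fold change was below 0 for 30 of 35 with a median of -0.15, against 0.00 over all genes. In 6 of the 35 the libraries lay below the controls within each sex, which 5.54% of all genes did. Without control female N980, 22 of 35 were lower with a median of -0.06 and 0 lower at an unadjusted p below 0.05. That count was 1 without 1% oil female N984 and 1 without control male N967, and the median was -0.23 without 1% oil male N972. Without the 4 libraries rich in retained introns 23 were lower with a median of -0.05. With library totals alone, 22 were lower.

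Between the oil diets, Lman1 rose at 5% oil against 1% oil, 1 of the 35 genes against 1.33% of all genes (184 of 13814). Lman1 (ENSMUSG00000041891) and Mcfd2 encode the receptor that carries factors V and VIII from the endoplasmic reticulum to the Golgi. Lman1 was at 114, 183, 220.1 and 215 CPM on the control diet (2 females, then 2 males), at 122, 108, 149.8 and 144 on 1% oil and at 268, 196, 196 and 278 on 5% oil. The 4 libraries on 5% oil lay above the 4 on 1% oil, and the control libraries overlapped both. The log2 fold change was 0.86 ± 0.19 for 5% against 1% oil (SE, edgeR adjusted p = 0.0447), 0.39 ± 0.19 for 5% against control (adjusted p = 0.381) and -0.47 ± 0.19 for 1% against control (adjusted p = 0.385). Mcfd2 was at 179.7, 291, 254 and 261 CPM on the control diet, at 176, 163, 154 and 211 on 1% oil and at 269.7, 187, 241 and 252 on 5% oil, with a log2 fold change of 0.43 ± 0.18 between the oil diets (adjusted p = 0.230).

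The Lman1 call depended on the scaling and on single libraries. With RLE factors it was 0.84 (adjusted p = 0.0532), with upper quartile factors 0.79 (adjusted p = 0.0608), and without the 4 libraries rich in retained introns 0.75 (adjusted p = 0.195). It was lost in 9 of the 12 fits that left out a library, down to 0.72 without 5% oil female N987. In 5 genes (Fgb, Proz, Tfpi, Vtn and Habp2) the libraries on 5% oil all lay below those on 1% oil, which 3.55% of all genes did. F5, whose protein is cargo of the receptor, had a log2 fold change of 0.04 ± 0.20 between the oil diets (adjusted p = 0.930), and F8 of -0.36 ± 0.24 (adjusted p = 0.448).

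A slope along the percent of oil passed for 0 of the 35 genes by edgeR, against 2.23% of all genes. At an unadjusted p below 0.05, 13 slopes were below 0 and 3 above 0. No share of all genes at that threshold is given here, so these counts cannot be read as particular to the 35. The smallest adjusted p was 0.0666, for Habp2, at -0.11 ± 0.03 log2 units per percent of oil. The count that passed was 1 of 35, with a slope below 0, without control male N967, and 1 of 35, with a slope above 0, without 5% oil male N975. The interaction of sex with 5% oil passed for 0 of the 35 and 0% of all genes, with Tfpi the 1 gene at an unadjusted p below 0.05. The interaction of sex with 1% oil passed for 0 of the 35 and 0% of all genes, with 0 of the 35 at an unadjusted p below 0.05. With 2 libraries of each sex per diet these tests are weak.

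Between the sexes, 2 of the 35 genes passed, both higher in females, against 8.94% of all genes in either direction (1235 of 13814). F7 (ENSMUSG00000031443), factor VII, was at 105 and 90.1 CPM in females and 55.6 and 51.8 in males on the control diet, at 70.4 and 60.6 against 49.3 and 47.3 on 1% oil, and at 73.9 and 71.6 against 34.3 and 42.4 on 5% oil. Every female exceeded every male. The log2 difference was 0.74 ± 0.12 (SE, edgeR adjusted p = 0.00259), and it passed in all 23 alternatives run, at 0.68 to 0.87. At 5% oil F7 had a log2 fold change of -0.42 in females and -0.48 in males, and over both sexes of -0.45 ± 0.15 (adjusted p = 0.151).

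F10 (ENSMUSG00000031444), factor X, the protease that factor VII activates, was at 546 and 554 CPM in females and 299 and 372 in males on the control diet, at 415 and 398 against 344 and 343 on 1% oil, and at 385 and 350.5 against 268 and 266 on 5% oil. Females exceeded males within each diet, and the sexes overlapped across diets. The log2 difference was 0.47 ± 0.12 (adjusted p = 0.0261), and it was lost in 8 of the 12 fits that left out a library, at 0.40 to 0.50. Without the 4 libraries rich in retained introns it was 0.65 (adjusted p = 0.112). At 5% oil F10 had a log2 fold change of -0.46 ± 0.14 (adjusted p = 0.121).

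F7, F10 and Proz lie next to each other in RefSeq with 0 protein-coding genes between them. Proz had a female to male log2 difference of 0.19 ± 0.11 (adjusted p = 0.245). At an unadjusted p below 0.05, 8 of the 35 were higher in females and 4 (F8, F9, F13b and Pros1) were lower. Over all 13814 genes, 1922 were higher and 2039 lower at that threshold. These were 28.7% of all genes, against 34.3% of the 35. The difference was 0.49 ± 0.16 for Proc (adjusted p = 0.0740) and 0.34 ± 0.11 for Kng2 (adjusted p = 0.0690), where every female was above every male. For this separation, seen in F7 and Kng2, no share of all genes is given here, so it cannot be read as particular to them. F13b, at 41.7 to 132 CPM in females and 71.1 to 148 in males, had a difference of -0.55 ± 0.24 (adjusted p = 0.158). Without control female N980, 7 of the 35 passed, 3 higher in females (F7, F10 and Proc) and 4 lower (F8, F9, F13b and Pros1). The count over all genes also rose without that library, as given in the closing section, so the rise was not particular to the 35. The median of the 35 went from 0.12 to 0.02, and at an unadjusted p below 0.05 there were 7 lower and 4 higher. With library totals alone in place of TMM factors 7 of the 35 passed, all higher in females, and the median of all genes moved from 0.03 to 0.13. No count over all genes is given for that scaling.

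**Figure D5:**
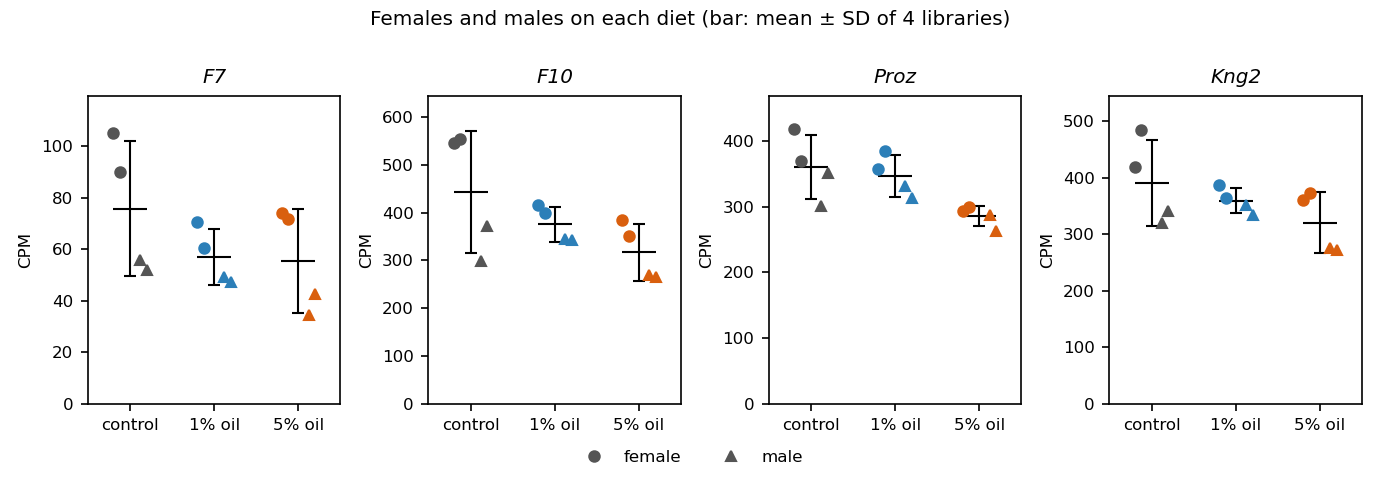
CPM (vertical axes, from 0) of F7, F10, Proz and Kng2 in each library by diet, with females as circles and males as triangles and the mean ± SD of 4 libraries in black. For F7 and Kng2 every circle lies above every triangle, and for F10 this holds within each diet.

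Other genes of clotting and fibrinolysis, listed apart from the 35, gave 1 higher and 2 lower of 33 tested at 5% oil, with a median log2 fold change of -0.21. Over all genes 2.46% passed in either direction. Nqo1, a quinone reductase that can reduce vitamin K, rose from 11.5 to 37.0 CPM in the mean (1.70 ± 0.18, adjusted p = 0.000293). Gas6, a vitamin K dependent relative of protein S, fell from 80.7 to 38.1 CPM (-1.08 ± 0.21, adjusted p = 0.0152), and without N980 this was -0.84 (adjusted p = 0.0584). Serping1, the C1 inhibitor that also restrains kallikrein and factor XII, fell from 716 to 470.1 CPM (-0.62 ± 0.15, adjusted p = 0.0449), a call lost in 10 of the 12 fits that left out a library. Serpina1c, an antitrypsin, had a log2 fold change of -0.77 ± 0.19 (adjusted p = 0.0543). At 1% oil 0 of 33 passed by edgeR, with 6 lower and 1 higher at an unadjusted p below 0.05, where 6.55% of all genes were lower. Gas6 had a log2 fold change of -1.08 (adjusted p = 0.0504). For 5% against 1% oil Nqo1 (1.81 ± 0.18, adjusted p = 0.000736) and Pdia4, a protein disulfide isomerase (1.03 ± 0.19, adjusted p = 0.0282), rose. The authors' deposited table of 261 genes, whose contrast is not named in it, holds 0 of the 35 genes and 2 of these others, Gas6 at a log2 fold change of -0.94 and Nqo1 at 0.94.

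Lists of other liver genes were read from the same fit. At 5% oil 2.46% of all 13814 genes passed in either direction, and 14.6% had an unadjusted p below 0.05. Of 18 hepatocyte markers, 2 fell at 5% oil (Ass1 and Apoc3) and 16 had a fold change below 0, with a median of -0.40, and their summed level was 137000 to 231300 CPM on the control diet, 143800 to 170100 on 1% oil and 119900 to 149100 on 5% oil. Of 25 acute phase genes, Orm1, Orm2 and Saa2 fell and Saa3 rose, with a median of -0.37. Of 24 hepatocyte transcription factors, Esr1 and Ppargc1a fell, with a median of 0.04. Of 19 clock genes, 7 rose (Dbp, Per3, Tef, Hlf, Nr1d2, Bhlhe40 and Bhlhe41) and 4 fell (Arntl, Npas2, Cry1 and Nfil3), with log2 fold changes from -3.31 to 5.36, and their summed level was 481 to 531 CPM on the control diet and 643 to 832 on 5% oil. Of the markers of other cells, 0 of 15 for Kupffer cells, 0 of 13 for stellate cells, 0 of 5 for cholangiocytes and 0 of 5 for platelets passed by edgeR, with 2, 3, 0 and 1 at an unadjusted p below 0.05. The Kupffer cell markers were below 0 in 14 of 15 at 5% oil (median -0.48) and in 13 of 15 at 1% oil (median -0.70). At 1% oil 0 of the 15 passed by edgeR and 12 were lower at an unadjusted p below 0.05, against 6.55% of all genes. The Kupffer cell markers summed to 482.5 to 897 CPM on the control diet, 294 to 559 on 1% oil and 296 to 659 on 5% oil. Between the sexes 1 of the 15 passed, higher in females, against 8.94% of all genes in either direction. At an unadjusted p below 0.05, 9 of the 15 were higher in females, against 1922 of 13814 genes, and the median of the 15 was 0.63. All 5 red cell markers tested were below 0 at 5% oil, from -1.75 to -1.17 with a median of -1.46, and 3 were lower at an unadjusted p below 0.05, of which Alas2 passed and fell. Alas2 was also lower in females than in males, by -3.15 on the log2 scale (edgeR adjusted p = 4.7e-07). The other red cell markers, all globins, passed neither at 5% oil nor between the sexes. All 5 markers summed to 241 to 515 CPM on the control diet, 70.7 to 548 on 1% oil and 104 to 221 on 5% oil. Snhg11 rose among 5 nuclear noncoding RNAs. Some of these calls at 5% oil were less stable than others. Of 26 alternatives Apoc3 passed in 7, Snhg11 in 10, Saa3 in 11, Orm2 in 12 and Ppargc1a in 13. The other genes named here as rising or falling at 5% oil passed in 14 or more. The part of any of these lists in the values of the 35 genes was not tested.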

How the data were processed

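Messenger RNA from 12 mouse livers was analysed from processed tables, and the 35 genes and all companion lists were chosen with earlier results of these data known. The estimated counts of 49398 genes and 141450 transcripts were deposited by the authors without normalization, and kallisto, edgeR, limma and build GRCm39 are named in the submitters' processing notes without versions. Per the labels' protocols the kit was stranded and selected poly(A) RNA, and whether counting used the strand is not given in the sources used here. The CPM values of 11339 genes were computed by the authors over those genes. The authors' deposited table of 261 genes holds log2 fold changes with p-values and adjusted p-values, and signal-like values per library that the authors deposited in it were not used in any test.

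Counts were rounded to whole numbers and fitted in R 4.3.3 with edgeR 4.0.16: TMM factors, a filterByExpr filter over 6 diet and sex groups, and a robust quasi-likelihood test with diet and sex terms on all 12 libraries. P-values are 2-sided and Benjamini-Hochberg adjusted over all 13814 genes tested, with a threshold of 0.05. The SE is the fold change over the root of the F statistic. A fit with 6 groups gave values within each sex and the interactions. Replicates are separate animals by their numbers, which no group shares. Levels are CPM with TMM factors, and levels per length use the longest coding length in the GENCODE annotation, which replaced a protein table not used here. Every one of the 35 genes is named. Companion genes are named where they passed in a diet comparison, with up to 4 of the smallest p at 5% oil given for the clotting list. Alternatives were RLE and upper quartile factors, no filter, at least 50 reads in 4 libraries, DESeq2 1.42.0, limma 3.58.1 (voom, or trend on log2 of deposited CPM + 0.5), no sex term, the noncoding share as a term, transcript sums, each library left out, and, chosen after seeing the data, library totals alone and 4 libraries left out. A simulation with no sex effect and the same dispersion for every gene checked only that planted fold changes were recovered. It does not show how the fit behaves on these libraries. Symbols matched for 48845 IDs and not for 553.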

Additional observations from a re-analysis of the deposited data

Results flagged for a closer look

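In 5 of 105 groups of 4 libraries (35 genes on 3 diets), 1 library lay far from the other 3, where chance gives about 5% of groups. Habp2 in control female N980 was at 194 CPM against 134.6 to 143.4 in the other control libraries, and its call at 5% oil was lost without that library. F13b in 5% oil female N988 was at 54.85 CPM against 117.7 to 130 in the others on that diet. Cpb2 in the same library was at 196.4 CPM against 245.8 to 248.5. Tfpi in 1% oil male N972 was at 5.226 CPM against 6.871 to 7.171, still above every library of the other diets. Hrg in the same library was at 1013 CPM against 767.5 to 805.2.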

How the results depend on the processing

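Over the alternatives run, no value of the 35 genes that passed in either fit changed its sign. Of the values tried per gene, 883 of 908 at 5% oil, 907 of 908 at 1% oil, 820 of 838 for 5% against 1% oil and 770 of 803 between the sexes stayed on their side of the threshold. Most of these values passed in neither fit. The calls themselves were less stable: Habp2 at 5% oil passed in 8 of 26 alternatives and Lman1 for 5% against 1% oil in 11 of 24. Between the sexes F7 passed in all 23 and F10 in 13 of 23. Several values near 0 crossed it in sign, F13b at 5% oil in 11 of 26 alternatives. At 5% oil the count of the 35 that passed went from 1 (Habp2, lower) to 2 without a filter, which were F3 and Thbd, both higher, with Habp2 at an adjusted p of 0.141. It went to 5 with DESeq2, all lower and Habp2 among them, and to 0 without the sex term, on deposited CPM, with library totals alone and without the 4 libraries rich in retained introns. Leaving out 1 library gave 0 to 1: Habp2 passed without N979, F3 passed as higher without N975, and 0 passed in the other 10. At 1% oil it went from 0 to 1 without a filter, that of F13b. For 5% against 1% oil it went from 1 to 0 with RLE, upper quartile, no sex term and without the 4 libraries, to 4 without a filter (F3, F13b, Thbd and Lman1, all higher) and 2 with DESeq2 (Lman1 higher, Vtn lower), and it was 0 to 2 with 1 library left out, 2 without N975 (F3 and Lman1, both higher). Between the sexes it went from 2 to 5 with DESeq2, 9 on deposited CPM and 7 with library totals alone, all higher in females, and to 1 without the 4 libraries, F7. It was 1 to 7 with 1 library left out, 7 without N980 (3 higher and 4 lower in females). Without a filter it stayed at 2, F7 higher and F13b lower. Between the sexes the median of all genes was 0.098 on deposited CPM and 0.129 with library totals alone, against 0.029 in the main fit. No count over all genes between the sexes is given for either setting. The slope count was 0 to 1 with 1 library left out.

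Over all genes the count at 5% oil went from 340 to 1011 without a filter, 749 with DESeq2 and 107 without the sex term, and was 138 (without N976) to 479 (without N975) with 1 library left out. At 1% oil it went from 31 to 649 without a filter, 50 with the stricter filter, 277 with DESeq2, 10 without the sex term, 76 with the noncoding term and 54 on deposited CPM, and was 13 (without N984) to 184 (without N979). For 5% against 1% oil it went from 184 to 1276, 707, 8, 470 and 281 with no filter, DESeq2, no sex term, the noncoding term and deposited CPM, to 42 without the 4 libraries, and was 13 (without N971) to 597 (without N975). Between the sexes it went from 1235 to 2375 without a filter, 2079 with DESeq2, 706 with the noncoding term and 156 without the 4 libraries, and was 594 (without N967) to 2356 (without N980). The cause was not tested.

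No paired analysis was possible because the animal numbers are shared by no groups. With 4 libraries per diet and 2 per sex, differences the size of most of these were not resolved. F3, Thbd, Tfpi and Vwf rest on few reads, from 4 to 130 a library.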
